A study of Mus musculus with 6 samples.

Results

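The genes examined here were 9 components of retinoic acid signaling, namely the receptors *Rara*, *Rarb* and *Rarg*, the uptake and binding proteins *Stra6*, *Crabp1* and *Crabp2*, and the enzymes *Dhrs3*, *Aldh1a2* and *Cyp26a1*. They were selected by symbol, out of 24288 symbols in the expression table, and each was represented by the entry with the most reads. The 9 genes had 21 entries among the 33674 that carry a symbol, and all 9 passed the filter on low expression. Total RNA had been sequenced from wild-type (WT) and Smad2/3 double-knockout (DKO) epiblast-like cells (EpiLCs), and the comparison asks which transcripts require these mediators of Nodal and activin signaling as embryonic stem cells (ESCs) exit naive pluripotency.

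EpiLCs model the early post-implantation epiblast. WT cells (n = 3 libraries) were of the CCE ESC line, and DKO cells (n = 3 libraries) were of clone KT15.1F6, in which exon 1 of *Smad3* had been removed by CRISPR nickases from *Smad2* knockout (Smad2 tm1Rob/tm1Rob) ESCs. Both lines have the 129/Sv//Ev background, and both were moved for 48 h into N2B27 medium with 20 ng/ml activin A, 12 ng/ml Fgf2 and 1% KSR, a serum substitute. The libraries of a genotype came from separate differentiations, so replicate error covers the differentiation step. Since each genotype was 1 line, effects of the knockout and other differences between the lines cannot be told apart.

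Retinoic acid is made from vitamin A (retinol) in 2 oxidation steps. Stra6 carries retinol into cells, retinol dehydrogenases turn it into retinaldehyde, and Dhrs3 runs that step backward. Aldh1a2 (also called Raldh2) oxidizes retinaldehyde to retinoic acid, and Cyp26a1 hydroxylates retinoic acid for clearance. Crabp1 and Crabp2 bind retinoic acid in the cytoplasm, and Crabp2 is known to hand it to receptors. The RAR receptors pair with retinoid X receptors on DNA and switch from corepressors to coactivators when retinoic acid binds. In the embryo, retinoic acid patterns the trunk and hindbrain after gastrulation, and Cyp26a1 keeps the anterior epiblast and the tailbud free of it.

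Libraries held between 57644143 and 63046034 recovered reads, counting each gene by 1 entry. Normalized reads, the unit used below, are reads after division by the size factor of the library (1.76 to 1.93). *Smad3* had a mean of 839 ± 37.0 normalized reads in the WT libraries and 23.6 ± 6.16 in the DKO libraries (SD, n = 3 each), whereas *Smad2*, counted over its whole gene body, was at 4520 ± 86.3 and 5062 ± 109 and therefore does not mark the knockout allele. EpiLC identity was checked with 7 markers. They summed to between 108768 and 112792 normalized reads in WT and between 105266 and 106799 in DKO. Most of each sum was *Dnmt3b* (70390 ± 1336 in WT, 65421 ± 388 in DKO), with *Pou5f1* next, so the sums say little of the rest. *Fgf5* (3235 ± 12.6 and 798 ± 23.0) and *Pou3f1* (6064 ± 147 and 3948 ± 161) were called lower in DKO. *Sox2* (2798 ± 46.0 and 7741 ± 110) was called higher.

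Of the 9 genes, *Cyp26a1* and *Crabp2* rose and *Dhrs3* fell in DKO EpiLCs. *Cyp26a1* was 8.77 times its WT level, *Crabp2* was 1.79 times its WT level, and *Dhrs3* was 4.01 times lower than in WT. Calls required an adjusted p under 0.05 (limma over 25361 entries, Benjamini-Hochberg) together with a fold change above 1.5. The background share of calls was 15.4% of genes (1 entry per gene), with 7.34% higher and 8.03% lower, and 15.4% of all entries, with 7.41% higher and 7.98% lower. No receptor passed both thresholds. The median log2 fold change was 0.27 over the 9 genes and 0.00012 over 17038 genes tested. Because these are bulk samples, fewer cells with a transcript and less transcript per cell cannot be told apart.

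**Figure D1:**
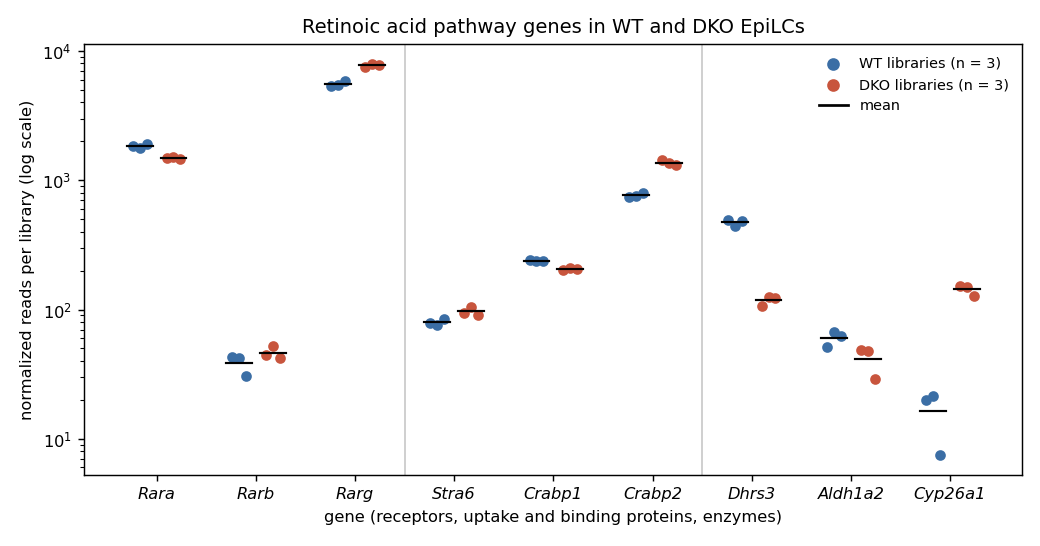
Normalized reads of the 9 genes (log axis) in 3 WT and 3 DKO libraries, with 1 point per library and a bar at each mean. The groups are separate for every gene except *Rarb*, and the widest gaps are those of *Cyp26a1* (7.47 to 21.6 in WT, 128 to 152 in DKO) and *Dhrs3* (442 to 490.5 in WT, 107 to 124 in DKO).

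For 8 of the 9 genes, all DKO libraries lay on one side of all WT libraries. This was also the case for 59.0% of the genes and 60.3% of the entries tested, so separation alone was common in this comparison. Without the fold-change threshold, 3 of the 9 genes passed as higher and 4 as lower, against a background of 53.6% of genes and 55.1% of entries passing in either direction.

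Among the receptors, *Rarg* was the most abundant by far. *Rarg* encodes the RAR that is broadly expressed in epiblast and primitive streak. *Rarg* (NM_011244, chr15:102234938-102257517, minus strand, mm10) measured 5349, 5431 and 5878 normalized reads in the WT libraries and 7574, 7989 and 7802 in the DKO libraries. Each DKO library was above each WT library, and the means were 5552 ± 285 and 7788 ± 208 (SD, n = 3 each). On the log2 scale the difference of 0.49 ± 0.03 (SE, adjusted p = 1.24e-13 in limma) was beyond replicate spread, and its upper 95% limit of 0.55 stayed under the threshold of 0.585.

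*Rara* encodes the most widely expressed RAR. *Rara* (NM_009024, chr11:98937698-98974162, plus strand) measured 1841, 1762 and 1916 normalized reads in WT and 1498, 1519.8 and 1468 in DKO. The direction was opposite to that of *Rarg*, again with no overlap between groups. The log2 fold change was -0.30 ± 0.04 (adjusted p = 1.29e-07), under the fold-change threshold.

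*Rarb* encodes the RAR whose own promoter is a classical target of retinoic acid. *Rarb* (NM_001289760) was low, with 43.0, 42.1 and 30.4 normalized reads in WT and 44.1, 52.0 and 42.5 in DKO. The groups overlapped, and the log2 fold change of 0.27 ± 0.18 was not called (adjusted p = 0.223, 95% interval -0.11 to 0.65). The interval leaves room for a rise past the threshold. The last 4.62 kb of the *Rarb* gene body overlap *Top2b* on the opposite strand, a gene named here after its values were seen (4069 ± 158 normalized reads in WT, 5529 ± 213 in DKO). Whether any reads of *Top2b* were counted in *Rarb* was not tested, as the library kit kept strand but its use in counting was not stated.

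As *Rarg* and *Rara* moved apart, the receptor make-up shifted toward *Rarg*. Per kilobase of gene body, *Rarg* made up 82.9% ± 0.472 of the summed level of the 3 RAR genes in WT and 89.3% ± 0.251 in DKO (SD, n = 3 each). The share of *Rara* went from 17.02% ± 0.462 to 10.6% ± 0.251, and *Rarb* held 0.0903% ± 0.0202 and 0.0826% ± 0.00750. The value of *Rarb* is a rough one, because its entries have unequal counts but match 1 annotated transcript of 144.7 kb, so the span behind its counts, and with it its level per kilobase, is uncertain. The ratio of *Rarg* to *Rara* per kilobase was 4.69 to 4.98 in the WT libraries and 8.16 to 8.58 in the DKO libraries. This ratio is taken within a library and so does not depend on scaling between libraries. Summed over the receptors without length scaling, normalized reads came to 7431 ± 341 for WT and 9329.5 ± 223 for DKO, which is 1.26 times higher. Gene bodies are taken to include introns, and a level per kilobase is therefore a level per length of gene body, not of mature transcript. The WT and DKO shares of *Rarg* and *Rara* differed by more than the replicate SD, those of *Rarb* did not, and none was tested.

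RAR genes have promoters inside the gene, and the table lists entries with unequal counts for them. Reads that fell in the longer *Rarg* entry but outside the shorter one (NM_001042727) came to 152 ± 11.5 (WT) and 191 ± 5.21 (DKO), which is 2.74% and 2.45% of the longer entry. Most *Rarg* reads, and most of the difference in *Rarg* reads, thus lay in the span shared by both entries. For *Rara*, the entry used held 307 ± 9.64 (WT) and 226 ± 22.2 (DKO) more normalized reads than the entry that starts furthest downstream (NM_001176528, chr11:98960412-98974942). This excess was 0.738 times as large in DKO as in WT, against 0.813 times for the whole entry. For *Rarb*, whose entry spans are not known here, the entry used exceeded the lower one (NM_001289762) by 8.89 ± 4.43 and 15.3 ± 2.55, with overlapping groups and 11 to 33 reads per library. These differences were not tested.

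Promoter sequences were then searched for the retinoic acid response element, the site at which an RAR and its partner bind. The DR5 form holds a pair of hexamers (each AGGTCA or AGTTCA or GGGTCA or GGTTCA) in the same orientation with 5 bases between them, and both strands were searched from 250 bases before to 50 bases after each RefSeq start site (GRCm38.p6). Of 32851 such windows, 32 held a DR5 (0.0974%). Windows were found for 8 of the 9 genes, 17 in all, and DR5 matches were present in those of *Rarb* and *Cyp26a1*. These promoters are shown because they carry the same kind of element, while *Cyp26a1* was called and *Rarb* was not. Capitals mark the DR5 in the 250 bases before the start site, on chr14:16575477-16575726 (minus strand) for *Rarb* and chr19:37697558-37697807 (plus strand) for *Cyp26a1*.
Rarb: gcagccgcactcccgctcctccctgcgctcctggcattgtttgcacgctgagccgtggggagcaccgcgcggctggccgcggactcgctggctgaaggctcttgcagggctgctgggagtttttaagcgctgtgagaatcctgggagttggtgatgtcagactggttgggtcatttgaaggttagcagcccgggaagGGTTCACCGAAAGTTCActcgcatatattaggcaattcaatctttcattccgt
Cyp26a1: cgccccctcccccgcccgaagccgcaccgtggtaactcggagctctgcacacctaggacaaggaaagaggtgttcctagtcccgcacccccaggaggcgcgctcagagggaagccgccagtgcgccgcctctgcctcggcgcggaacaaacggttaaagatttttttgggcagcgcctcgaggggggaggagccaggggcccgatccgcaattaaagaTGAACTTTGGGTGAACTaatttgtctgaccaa

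In *Rarb* the element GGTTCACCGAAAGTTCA lies on the gene's strand from position -53 to -37, counted from the RefSeq start site at 16575476. The transcript used for the length of *Rarb* starts further upstream, at 16575543, and so includes the element. In *Cyp26a1* the element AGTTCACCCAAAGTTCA lies on the opposite strand from -32 to -16, and so appears above as its reverse complement. Both elements carry AGTTCA, a hexamer found in 14.0% of windows. Forms with 2 or 1 bases between hexamers (DR2 and DR1), present in 0.268% and 0.222% of windows, were not found in the windows of the 9 genes. The hexamer CAGACA, which contains the Smad core CAGAC and is present in 21.0% of windows, occurred once in the *Cyp26a1* window (-11 to -6, opposite strand), in the window of the shorter *Rarg* entry and in windows of *Stra6*. The *Dhrs3* windows held none of the motifs searched. A match describes letters and is not evidence of binding.

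The DR5 windows belonged to 31 genes, of which 20 had no row under that symbol in the expression table, 4 were filtered for low values and 7 were tested. *Cyp26a1* was the 1 gene called among these 7 (14.3%, against 15.4% of genes tested). *Blvrb*, *Cfap45*, *Prokr2*, *Rarb*, *Syndig1* and *Tnfsf13b* were not called. Apart from *Rarb*, these genes are named for the motif alone.

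Retinol uptake and retinoic acid binding were represented by *Stra6*, *Crabp1* and *Crabp2*. *Stra6* (NM_001162475, chr9:58129088-58153955, plus strand) measured 79.0, 75.7 and 84.3 normalized reads in WT and 94.2, 105 and 91.2 in DKO. Although the groups did not overlap, *Stra6* was not called, and its log2 difference was 0.28 ± 0.13 (adjusted p = 0.0623, 95% interval 0.02 to 0.53).

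*Crabp2* (NM_007759, chr3:87948666-87953376, plus strand) measured 737, 757 and 799 normalized reads in WT and 1428, 1363 and 1319 in DKO. Every DKO library exceeded every WT library by a wide margin. The log2 fold change was 0.84 ± 0.05 (limma, adjusted p = 2.73e-15, 95% interval 0.75 to 0.93).

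*Crabp1* (NM_001284507, chr9:54764748-54773110, plus strand), the paralog of *Crabp2*, was tightly reproduced at 242, 237 and 239 normalized reads in WT and 204, 210.1 and 204 in DKO. The groups were separate, and the log2 fold change of -0.21 ± 0.08 (adjusted p = 0.0246) was far from the fold-change threshold. Thus the transcripts of *Crabp2* and *Crabp1* differed in opposite directions, and *Crabp2* alone passed both thresholds. The adjusted p of *Crabp1* (limma) was 0.0595 without WT replicate 1 and 0.0520 without WT replicate 3. It was 0.0559 without DKO replicate 1 and 0.0543 without DKO replicate 3. Only without WT replicate 2 (0.0477) or DKO replicate 2 (0.0381) did it stay under 0.05. The ratio of *Crabp2* to *Crabp1* per kilobase was 5.67 ± 0.264 for WT and 11.8 ± 0.543 for DKO (SD over 3 libraries each), 2.08 times higher, with no overlap between groups.

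**Figure D2:**
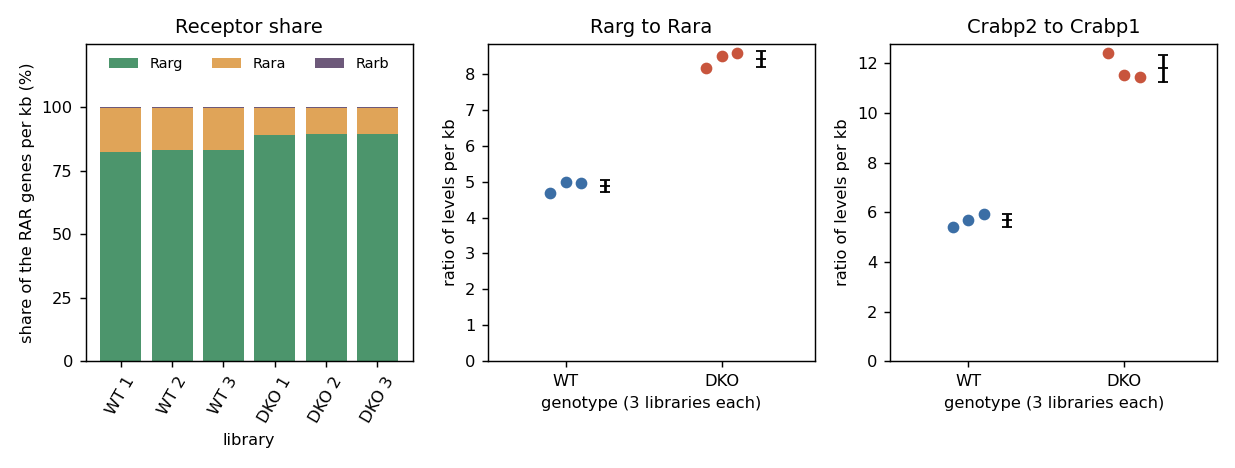
Left, share of each RAR gene in their summed level per kilobase of gene body (%) for each library. Middle and right, ratios of levels per kilobase within each library (points) with mean and SD (bars, n = 3). *Rarg* to *Rara* lies at 4.87 in WT and 8.41 in DKO, and *Crabp2* to *Crabp1* at 5.67 and 11.8.

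Of the 3 enzymes, *Cyp26a1* rose, *Dhrs3* fell and *Aldh1a2* was not called. *Cyp26a1* (NM_007811, chr19:37697798-37701536, plus strand) was near the lower end of detection in WT, with 19.9, 21.6 and 7.47 normalized reads, and reached 152, 149.7 and 128 in DKO. In recovered reads these were 14 to 38 per WT library and 246 to 285 per DKO library, so the DKO level rests on many more reads than the WT level. WT replicate 3 was the low library, and the coefficient of variation was 47.3% in WT against 9.52% in DKO. The log2 fold change was 3.18 ± 0.24 (limma, adjusted p = 5.73e-12, 95% interval 2.68 to 3.67), and in absolute size it exceeded that of 99.7% of entries tested. This was the widest change of the 9 genes. *Rarb*, with a DR5 at a similar distance from its RefSeq start site, was not called. Whether the DR5 elements shown above had a part in the level of either gene was not tested.

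*Dhrs3* (NM_001172424, chr4:144892827-144927645, plus strand) measured 490.5, 442 and 483 normalized reads in WT and 107, 124 and 122 in DKO. The groups were far apart, and the log2 fold change was -1.996 ± 0.08 (limma, adjusted p = 9.59e-18, 95% interval -2.17 to -1.82). Its absolute size exceeded that of 98.7% of entries. The other *Dhrs3* entry (NM_011303, chr4:144893077-144928209), which starts and ends further downstream, gave nearly the same values, with means of 458.4 and 115 and a log2 difference of -1.99 ± 0.08. *Dhrs3* and *Cyp26a1* are both known to be induced by retinoic acid in other settings, and here they moved in opposite directions. Whether retinoic acid had a part in either change was not tested.

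*Aldh1a2* (NM_009022, chr9:71215789-71296243, plus strand) was low in both genotypes, with 51.6, 67.2 and 62.4 normalized reads in WT and 48.4, 47.8 and 29.0 in DKO. The groups were adjacent and did not overlap. The log2 fold change of -0.55 ± 0.19 (adjusted p = 0.0147, 95% interval -0.94 to -0.16) lay just inside the fold-change threshold, and 1 library was enough to move it across. It was called lower without WT replicate 1 (-0.66), DKO replicate 1 (-0.67) or DKO replicate 2 (-0.66), and it was -0.31 without DKO replicate 3, the lowest library. Per kilobase, the ratio of *Cyp26a1* to *Aldh1a2* was 2.57 to 8.29 in the WT libraries and 67.4 to 94.5 in the DKO libraries. The size of this ratio depends on gene bodies of 3.74 kb for *Cyp26a1* and 80.5 kb for *Aldh1a2*. In normalized reads, *Cyp26a1* (7.47 to 21.6) was below *Aldh1a2* (51.6 to 67.2) in each WT library and above it in each DKO library.

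**Figure D3:**
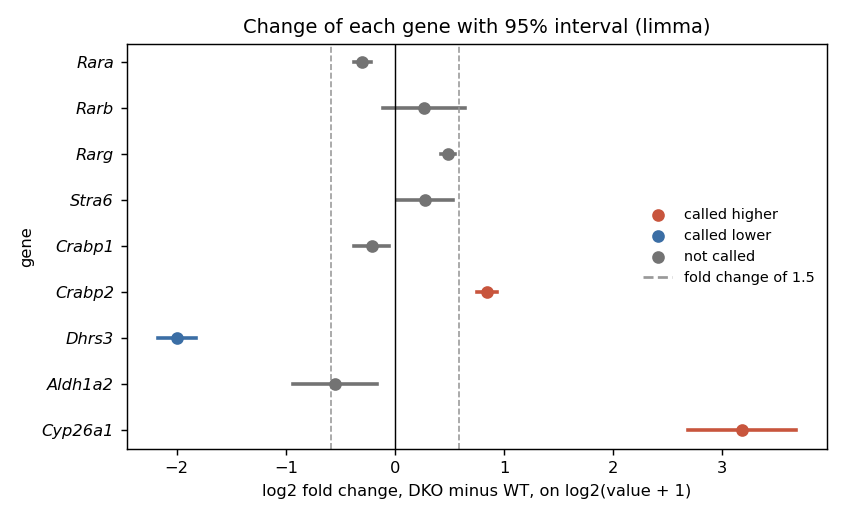
Log2 fold change of each gene (DKO minus WT, on log2(value + 1)) with its 95% interval from limma. Dashed lines mark a fold change of 1.5. *Cyp26a1* (3.18) and *Crabp2* (0.84) lie beyond the right line and *Dhrs3* (-1.996) beyond the left one. The interval of *Aldh1a2* crosses the left line and that of *Rarb* the right line.

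Ordered by level per kilobase, WT EpiLCs ran from *Rarg* (246 ± 12.6 normalized reads per kb) through *Crabp2* (162 ± 6.76), *Rara* (50.4 ± 2.12), *Crabp1* (28.6 ± 0.301), *Dhrs3* (13.5 ± 0.754), *Cyp26a1* (4.37 ± 2.06), *Stra6* (3.20 ± 0.174) and *Aldh1a2* (0.750 ± 0.0992) to *Rarb* (0.266 ± 0.0485, on the uncertain span given above). The libraries of neighbours in this order did not overlap, except those of *Cyp26a1* and *Stra6*. In DKO EpiLCs *Cyp26a1* (38.3 ± 3.64) moved up beside *Rara* (41.0 ± 0.714), with overlapping libraries, and *Dhrs3* (3.38 ± 0.276) moved down below *Stra6* (3.89 ± 0.293). The other neighbours were again separate. Per kilobase of a gene with long introns, a level is diluted, and the order carries this limit.

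Other cell types were examined through marker lists, as several of the 9 genes are also expressed outside the epiblast. Trophoblast markers summed to 203 to 222 normalized reads in WT and 764 to 951 in DKO, and all 6 tested of 7 were called higher, with *Elf5* left out at 0 to 6 reads per library. The background shares were 7.34% of genes called higher and 8.03% lower. *Gata3* (4 to 9 reads per WT library) and *Hand1* (4 to 14) passed the filter on low values through their DKO libraries, so their direction was not free of it. *Krt7* was just past the fold-change threshold (log2 fold change 0.60). Extra-embryonic endoderm markers summed to 367 to 407 in WT and 431 to 498 in DKO, with 3 of 9 tested called higher. Those called were *Hnf4a* (5.40 ± 2.75 in WT, 21.3 ± 4.06 in DKO), *Gata6* (13.8 ± 2.08 and 32.9 ± 7.56) and *Cubn* (86.7 ± 4.06 and 168 ± 38.6), while *Ttr* was at 3 reads or fewer in each library and *Afp*, at 9.15 and 7.001, was not called. *Dab2*, the most abundant of them in WT, was lower in DKO (198 ± 17.2 and 154 ± 14.4, log2 fold change -0.37) and not called. The median log2 fold change of the 9 tested was -0.11, so the higher sum was not a general rise. *Hnf4a*, at 4 to 14 reads per WT library, passed the filter on low values through its DKO libraries. These markers were named after their values were seen. Mesoderm markers summed to 89.9 to 95.5 in WT and 31.1 to 49.9 in DKO, and the 3 tested of 5 were called lower. The part of such cells or states in the changes of *Cyp26a1*, *Crabp2* and *Dhrs3* was not tested.

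Naive markers, which are shared with the starting ESCs, summed to 3160.0 to 3332 in WT and 4682 to 4775 in DKO, with 3 of 5 called higher. For this list and those below, the background shares were again 7.34% of genes called higher and 8.03% lower. Neural markers summed to 301 to 307 and 312 to 362, with 1 of 5 tested called higher and 2 lower. *Pax6* was called higher, and *Sox1* and *Pax3* were called lower. *Pax3*, at 6 to 10 reads per DKO library, passed the filter on low values through its WT libraries. Its direction was therefore not free of the filter. Fibroblast markers summed to 1624 to 1689 and 521 to 571, with 2 of 6 tested called lower. Most of the fibroblast sum was *Dcn*, with 1329.6 ± 51.3 in WT and 300.4 ± 16.9 in DKO, and *Col1a2* was the other gene called.

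To place the 9 genes in their pathway, 48 further symbols of retinoid metabolism and receptor cofactors were examined. Of these 2 were not in the table under that symbol, 9 were filtered for low values and 37 were tested. Of the 37, 5 were called higher and 1 lower, against a background of 15.4% of genes called (7.34% higher and 8.03% lower). The share called in either direction was close to the background, but the calls were mostly higher. The median log2 fold change of the 37 was 0.07, and the counts were not tested. *Aldh1a3*, which like *Aldh1a2* makes retinoic acid, had 11.5 ± 1.77 normalized reads in WT and rose to 37.9 ± 3.10 (a log2 difference of 1.65 ± 0.24, adjusted p = 1.23e-06). *Adh4*, an alcohol dehydrogenase that can use retinol, was low but rose from 16.5 ± 2.04 to 30.3 ± 4.57 (0.84 ± 0.23, adjusted p = 0.00361).

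The nuclear coactivators *Ncoa1* and *Ncoa3* also rose, *Ncoa1* from 705 ± 9.03 to 1076 ± 18.4 normalized reads and *Ncoa3* from 5620 ± 176 to 9587 ± 63.9. The 1 gene called lower was *Rbp4*, the plasma carrier of retinol, which fell from 36.5 ± 6.70 to 22.5 ± 2.46 (log2 fold change -0.66 ± 0.21, adjusted p = 0.0102). Its call was lost without WT replicate 2 and with a pseudocount of 10. The 3 most abundant genes of the list that were not called were the corepressor *Ncor1* (log2 fold change 0.35 ± 0.02), the alcohol dehydrogenase *Adh5* (0.08 ± 0.03) and the corepressor subunit *Tbl1xr1* (0.03 ± 0.03).

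None of the 3 retinoid X receptors, the partners of the RARs, was called. They were named after their values were seen. *Rxra* was at 903 ± 23.3 and 974 ± 41.6 normalized reads in WT and DKO, *Rxrb* at 1374 ± 34.0 and 1154 ± 33.4, and *Rxrg* at 657 ± 34.1 and 680 ± 43.4. The other clearance enzymes, *Cyp26b1* and *Cyp26c1*, also named after their values were seen, stayed low, at 9.48 ± 1.71 and 11.6 ± 4.90 for *Cyp26b1* and 6.89 ± 2.35 and 9.73 ± 5.12 for *Cyp26c1*. Neither was called, and their intervals at this depth are wide.

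A second list held 23 genes that retinoic acid is known to raise in embryos or stem cells, other than the 9 genes. Of these 4 were filtered and 19 tested, with 6 called higher and 3 lower, against a background of 15.4% of genes called (7.34% higher and 8.03% lower), and a median log2 fold change of 0.23. The list was chosen with earlier results known, and its count was not tested. *Meis2*, a homeobox cofactor of Hox proteins, rose from 608 ± 42.9 normalized reads to 1977 ± 46.1 (a log2 difference of 1.70 ± 0.05, adjusted p = 5.90e-22), and its paralog *Meis1* from 27.8 ± 6.33 to 83.7 ± 7.91 (1.58 ± 0.18, adjusted p = 1.71e-08). *Stra8*, a gatekeeper of meiosis, rose from 58.0 ± 3.35 to 157 ± 6.14 (1.43 ± 0.12, adjusted p = 4.26e-11). *Egr1*, an immediate early gene that answers to many signals, rose by a log2 fold change of 0.81 ± 0.06.

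*Tshz1* and *Hoxb1* rose at low levels, *Tshz1* from 4.70 ± 2.40 to 16.2 ± 2.35 normalized reads and *Hoxb1* from 18.2 ± 1.07 to 29.9 ± 3.48. *Hoxb1* was not called with a pseudocount of 10. *Lefty1*, best known as a Nodal target, fell from 14273 ± 252 to 94.9 ± 9.84. *Hoxb4* fell from 11.9 ± 1.18 to 2.49 ± 2.71, and *Nr2f2*, an orphan receptor gene, from 12.4 ± 3.37 to 5.45 ± 2.48, both on few reads. *Tshz1* passed the filter on low values through its DKO libraries, and *Hoxb4* and *Nr2f2* through their WT libraries. Their directions were therefore not free of the filter. *Nr2f2* was not called with a pseudocount of 10 or when WT replicate 1 or DKO replicate 2 was left out. *Ret*, a receptor tyrosine kinase gene and among the most abundant genes not called, was at 51.2 ± 5.13 and 50.9 ± 6.80 (log2 fold change -0.01 ± 0.16).

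**Figure D4:**
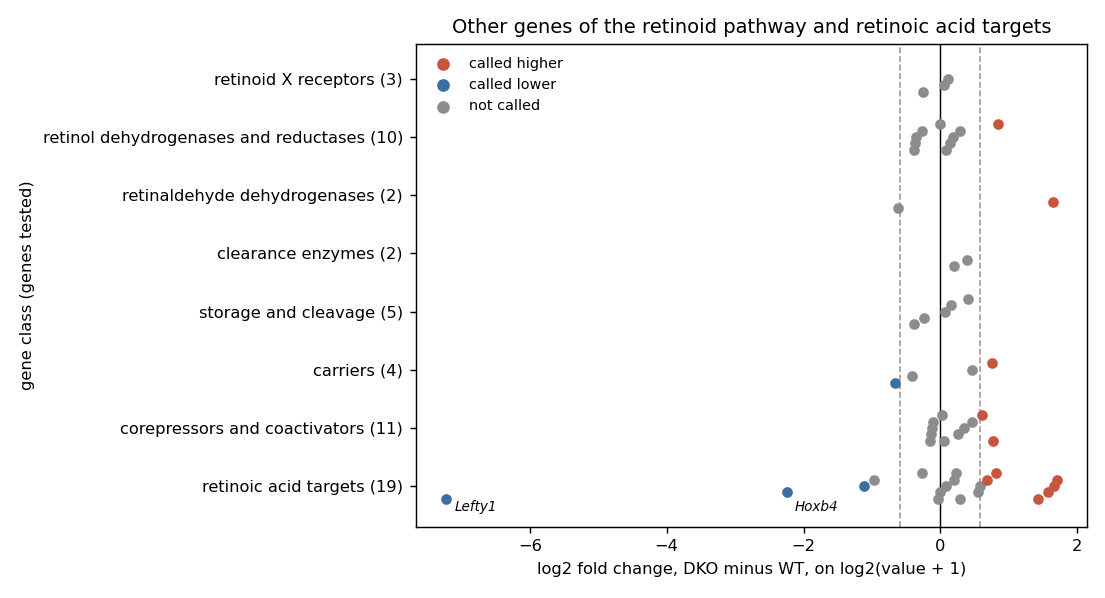
Log2 fold change (DKO minus WT, on log2(value + 1)) of the 37 tested genes of the wider retinoid pathway, by class, and of the 19 tested retinoic acid targets, with 1 point per gene. Dashed lines mark a fold change of 1.5. Most pathway genes lie between the lines, and the targets spread from -7.22 (*Lefty1*) to 1.70 (*Meis2*).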

How the data were processed

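RNA-seq was compared between 3 WT and 3 DKO libraries of day 2 EpiLCs, grouped by their GEO labels. Per the study's methods, rRNA reads were removed with bowtie2, the rest was aligned to mm10 with STAR, PCR duplicates were removed with Samtools, and reads were counted over refGene gene bodies. Libraries were prepared with a stranded TruSeq kit. Software versions, and whether counting used strand, are not given in the sources used here. In the table deposited by the authors, each value is a signal, a read count scaled by the size factor of its library. Whole reads were recovered for 100% of values (tolerance 0.01 reads). Rows without a symbol (138 rows, 0.517% of reads) were left out. The authors' own comparison table (fold changes and p-values) was not used.

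Log2(value + 1) was fitted with limma (version 3.58.1, R 4.3.3) with a mean-variance trend over 25361 entries kept by filterByExpr of edgeR, with Benjamini-Hochberg adjustment over all of them. Fold changes are on that scale, where the added 1 pulls those of weakly expressed genes toward no change. Against the count tests they were not always smaller. For *Cyp26a1* the log2 fold change was 3.18 with limma and 3.13 with both edgeR and DESeq2. Alternatives were edgeR (version 4.0.16) and DESeq2 (version 1.42.0) on recovered reads, other pseudocounts, scalings, filters and entries, a replicate block, and leaving out each library. limma, edgeR and DESeq2 were tested on simulated data. On 1 entry per gene, 2619 genes were called with limma, 2650 with edgeR and 2479 with DESeq2. Positions came from GENCODE M21 by RefSeq identifier and promoters from RefSeq (GRCm38.p6). All *Rarb* entries matched 1 transcript there (chr14:16430839-16575543), whose length was used per kilobase, although their counts are unequal and their spans in the authors' annotation are therefore uncertain. The genes and lists were chosen with earlier results of these data known. Genes named were the 9 genes, the targeted genes, from each list those called and the 3 most abundant not called, and the 3 genes most like the called genes with the widest rise and fall; a few of these are not reported here. Errors cover the spread between differentiations, and reads are not counts of single molecules.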

Additional observations from a re-analysis of the deposited data

How the results depend on the processing

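*Cyp26a1*, *Crabp2* and *Dhrs3* kept their calls and directions under each of 16 alternatives, with log2 fold changes of 2.58 to 3.43, 0.81 to 0.87 and -2.04 to -1.92. *Rara*, *Rarb*, *Rarg*, *Stra6* and *Crabp1* were not called under any of their 16. Leaving out 1 library gave 1 to 2 of the 9 genes lower and a log2 fold change of *Aldh1a2* between -0.67 and -0.31, called in 3 of these 6 fits. Without a fold-change threshold, by construction, 4 of the 9 genes were lower, 13 genes of the wider pathway were higher and 9 lower, and 55.1% of entries passed. Genes of the wider pathway called lower numbered 0 with a pseudocount of 10, 2 without a filter, and 1 to 2 without 1 library. Unscaled for gene body length, the WT and DKO shares were 74.7% and 83.5% for *Rarg*, 24.8% and 16.0% for *Rara*, and 0.522% and 0.495% for *Rarb*. With edgeR and DESeq2 the same 2 genes were higher and 1 lower. Deviations from the group means were uncorrelated between WT and DKO replicates of the same number (0.00881, -0.0293 and 0.0365 over 11930 genes). The numbers were therefore not taken as pairing, and with a replicate block 2 of the 9 genes were higher and 1 lower, as without it. For *Cyp26a1* in WT, *Rarb*, *Aldh1a2* and the low members of both lists, few reads limit the precision.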

Other observations

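Genes with the profile most like those of *Cyp26a1* and *Dhrs3* were sought among 11930 genes (mean level of 100 normalized reads or more), by the root mean square difference of log2(value + 1), each relative to its WT mean, over 6 libraries. Nearest to *Cyp26a1* were *Calcoco2* (mean normalized reads of 76.4 ± 16.4 in WT and 681 ± 67.4 in DKO) and the growth factor gene *Igf2* (38.3 ± 1.37 and 316 ± 25.6), both at a difference of 0.45. Nearest to *Dhrs3* were *Fam19a4* (216 ± 8.17 and 52.7 ± 1.66), the cyclic nucleotide phosphodiesterase gene *Pde1b* (533.5 ± 7.19 and 132 ± 8.28) and the aminotransferase gene *Aadat* (214.5 ± 11.04 and 51.1 ± 3.02), at 0.06, 0.06 and 0.07. With 2 groups of 3 libraries, this likeness reflects mainly a difference of similar size between the genotypes.

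The ratio of *Cyp26a1* to *Dhrs3* per kilobase was 0.144 to 0.456 in the WT libraries and 9.71 to 13.3 in the DKO libraries, so that per kilobase *Dhrs3* was the higher in each WT library and *Cyp26a1* in each DKO library. The size of the ratio depends on gene bodies of 3.74 kb for *Cyp26a1* and 34.8 kb for *Dhrs3*. In normalized reads the order was the same, but the DKO libraries were close (128 to 152 for *Cyp26a1*, 107 to 124 for *Dhrs3*).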
